A study of Mus musculus with 2 samples.

Results

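Pax3 and Pax7, a pair of paired-box transcription factor genes, were examined cell by cell in the cranial neural crest lineage (CNCCs) of E11.5 mouse embryos. Both genes were found by symbol, 1 row each, so the set holds 2 of the 32285 genes in the files. The control group came from Tfap2HET embryos (Tfap2a wt/flox, Tfap2b wt/flox) and the mutant group from sibling Tfap2NCKO embryos (Tfap2a flox/flox, Tfap2b flox/flox). All carried the Wnt1CRE transgene and r26 mTmG/mTmG, a membrane reporter that turns green after recombination, and the green cells of each head, taken down to the second pharyngeal arch, were sorted. The Wnt1 driver is active in the dorsal neural tube as well as in the premigratory crest, so the sort also holds neurons and progenitors of the brain, and the controls carry 1 floxed allele of each gene. Cells of 2 embryos were pooled into 1 library per group, so no replicate error could be estimated and no test was made. Each bracketed range is a 95% interval that covers counting error alone.

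PAX3 and PAX7 each bind DNA through a paired domain and a homeodomain. In the embryo both mark the dorsal neural tube, the neural plate border and parts of the neural crest, and both mark progenitors of skeletal muscle. In the crest, PAX3 is known for its part in melanocyte and Schwann cell precursors, and in mice the pair act partly in place of each other in the frontonasal mesenchyme, where their joint loss leads to clefting.

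Pax3 (ENSMUSG00000004872) lies on the minus strand at chr1:78101267-78197134 and Pax7 (ENSMUSG00000028736) on the minus strand at chr4:139737062-139833528 in GENCODE release M21 (GRCm38, the mm10 assembly). No other annotated gene overlaps either one. Because the genes are paralogs, reads could in principle be shared between them. The longest run that any Pax3 transcript shared with any Pax7 transcript was 26 bases. For the last exons, where a 3′ library counts most molecules, it was 12 bases.

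The control library kept 5625 cells with a median of 13478 UMIs (unique molecule tags), and the mutant library 5587 cells with a median of 12234. Only 5 kept barcodes were found in both libraries. Control cells carried Xist (98.81% of cells) and mutant cells carried transcripts of Y-linked genes (82.05%), and the effect of genotype therefore cannot be told apart from that of sex. In the mesenchyme, the targeted genes were counted at 19.4 and 13.4 UMIs per 1000000 (CPM) for Tfap2a and at 56.5 and 47.4 CPM for Tfap2b, in control and mutant respectively. A 3′ count does not tell the intact floxed transcript from the recombined one, so these counts are no check of the deletion.

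Cells fell into mesenchyme (3759 control and 2810 mutant cells), glia-like cells (260 and 200) and neural cells (1606 and 2577), and the mesenchyme and the neural cells were clustered again. Pax3 and Pax7 took no part in forming any cluster. Of the mesenchyme clusters, 0 was frontonasal-like, 1 second arch-like, 2 maxillary-like, 3 mandibular-like and 4 periocular-like. Cluster 5, with 39 control and 82 mutant cells, was led by neural genes such as Sox2 and was left unnamed. Of the neural clusters, 0 and 5 formed the brain progenitor class and 1, 2, 3 and 8 the neuron class. Cluster 9 was roof plate-like, and clusters 4, 6 and 7 had no class. Cluster 4, led by Msx3, Wnt3a and Gdf10, is called the Msx3-led dorsal cluster here, since its 13 dorsal neural tube genes summed to 1801 CPM in control and 1945 CPM in mutant cells against 1.29 and 14.3 CPM for 9 ventral genes.

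The borders between mesenchyme clusters were not stable, and this bears on every value given per cluster. The clustering was repeated 5 times after the data were seen, with 4 other random seeds and with another linear algebra kernel, which changes rounding only. A cluster named frontonasal-like came out in 1 of these 5. In the other 4, between 59.4% and 60.5% of the frontonasal-like cells went to 1 cluster and between 39.4% and 40.3% to another, one of them named maxillary-like and the other periocular-like. The clusters described here are those of the first clustering made. Sums over the whole mesenchyme, the glia-like cells and the brain progenitors did not depend on these borders in the same way, and their ratios under the repeats are given beside them.

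Pax3 was counted in almost every class of these cells, whereas Pax7 was largely a gene of frontonasal-like cells and of a few neural clusters. In the control library, 41.7% of 6381 Pax3 UMIs and 70.1% of 1494 Pax7 UMIs lay in frontonasal-like cells, which were 21.5% of the cells. In the mutant library, where these cells were 13.4% of the total, they held 20.8% of 5934 Pax3 UMIs and 37.7% of 991 Pax7 UMIs. Neural cells held 62.8% of the mutant Pax3 UMIs and 50.6% of the mutant Pax7 UMIs, against 37.3% and 20.2% in control. Over all kept cells Pax3 was accordingly level, at 77.5 CPM in control and 76.8 CPM in mutant (log2 ratio -0.01, -0.06 to 0.04), and Pax7 went from 18.2 to 12.8 CPM (log2 ratio -0.50, -0.62 to -0.38). The number of cells of each kind in 1 sorted pool cannot be told apart from how many were captured.

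**Figure D1:**
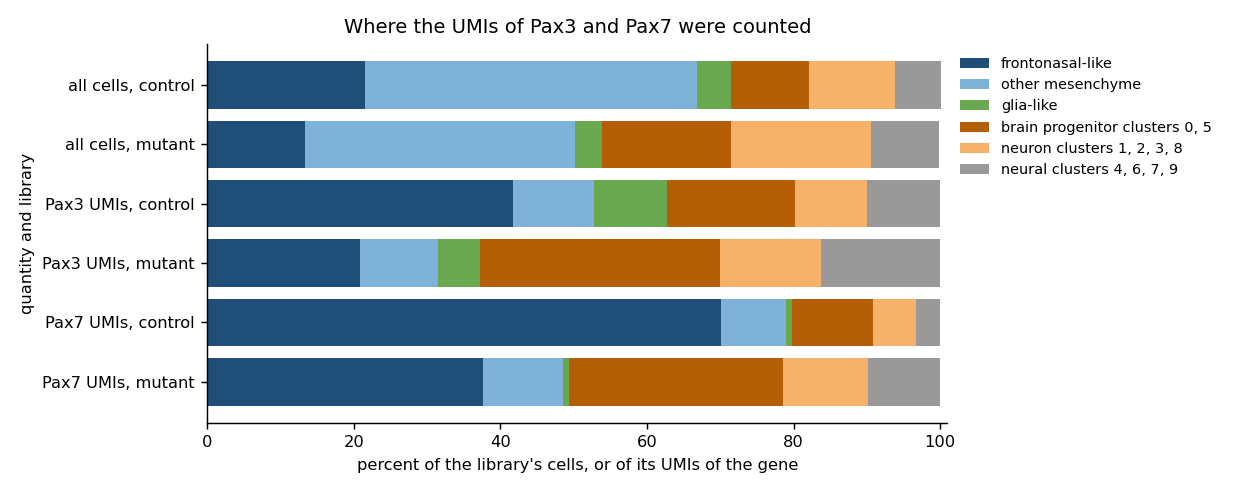
Share of each library's cells (upper bars) and of its Pax3 and Pax7 UMIs (lower bars), in percent, that fell in each class. Frontonasal-like cells held 41.7% of control and 20.8% of mutant Pax3 UMIs, and 70.1% and 37.7% of Pax7 UMIs.

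Among control clusters the Pax3 level was highest in the Msx3-led dorsal cluster (275 CPM, 250 to 303). It was followed by neural cluster 3 (214, 193 to 236), the main progenitor cluster 0 (185, 174 to 196), the roof plate-like cluster (150, 120 to 184) and the frontonasal-like cluster (135, 130 to 140). The interval of the dorsal cluster stood apart from the next. Those of neural clusters 3 and 0 overlapped by little, and the roof plate-like interval took in part of that of cluster 0 and all of that of the frontonasal-like cells. Glia-like cells (126, 117 to 136) and unnamed mesenchyme cluster 5 (124, 103 to 146) were not separated from the frontonasal-like cells. Neural clusters 1 and 7 had 73.2 and 71.6 CPM. Mandibular-like (24.6), periocular-like (19.1), glutamatergic neuron-like (18.1) and maxillary-like (15) cells followed far below, and second arch-like cells, at 2.97 CPM (1.97 to 4.29), were close to the lowest.

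For Pax7 the control order began with the frontonasal-like cells (53.3 CPM, 50.1 to 56.6). Unnamed mesenchyme cluster 5 (28.1, 18.9 to 40.1), progenitor cluster 0 (27.5, 23.4 to 32), neural cluster 3 (24.6, 18.0 to 33.0), periocular-like cells (17.2, 13.5 to 21.7) and the Msx3-led dorsal cluster (14.8, 9.40 to 22.3) came next with intervals that overlapped from each to the next. Glia-like cells had 2.57 CPM from 13 UMIs, and second arch-like, mandibular-like and maxillary-like cells had 1.38, 0.712 and 0.634 CPM. Neural cluster 5, with Nkx2-1 among its leading genes, had no Pax7 UMI in either library, with upper bounds of 2.82 CPM in control and 2.72 CPM in mutant. Counts of 3′ ends are not scaled to transcript length or capture, so the levels of Pax3 and Pax7 were not set against each other.

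**Figure D2:**
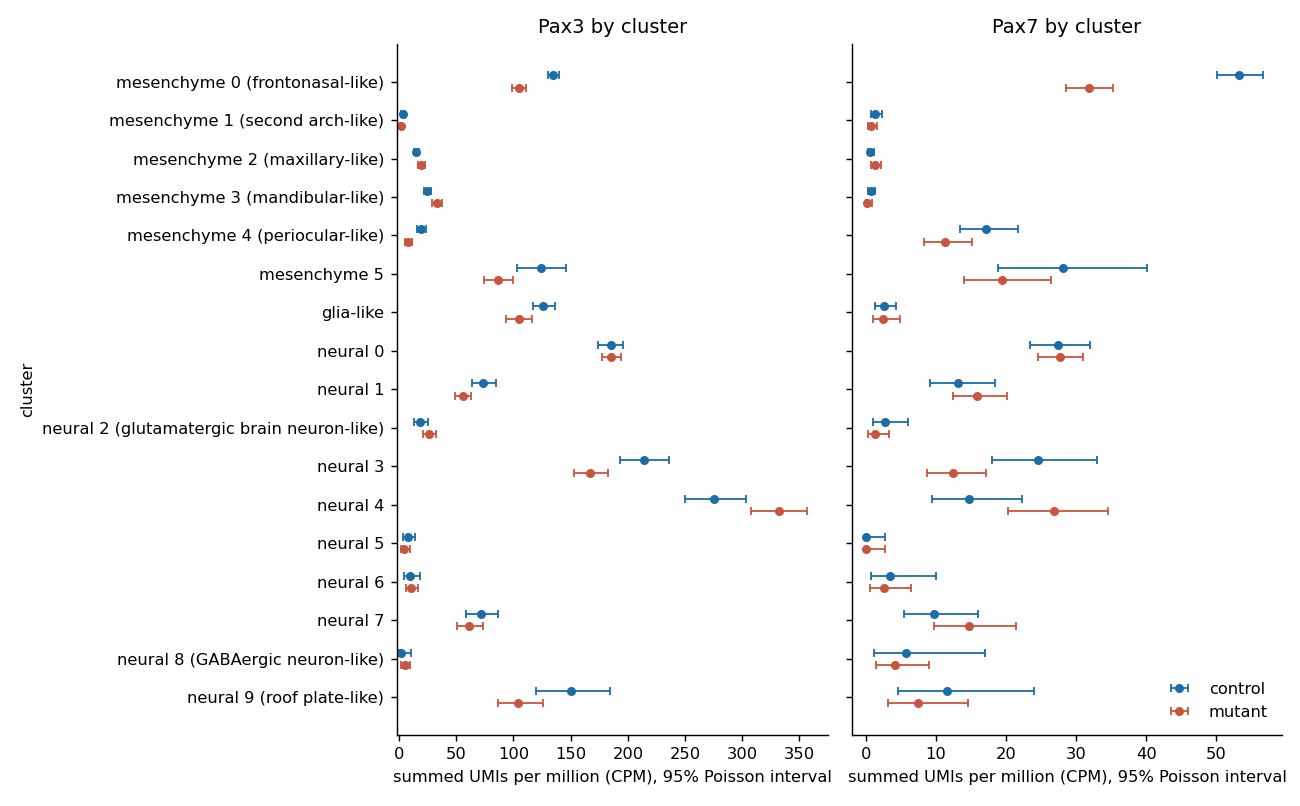
CPM of Pax3 (left) and Pax7 (right) in each cluster of control and mutant cells, with 95% Poisson intervals, on separate linear axes. Pax7 stood at 53.3 CPM in control and 31.8 CPM in mutant frontonasal-like cells, and Pax3 at 275 and 332 CPM in neural cluster 4.

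The share of cells with a UMI gave the same picture once each cell was thinned to 5000 UMIs. In frontonasal-like cells, Pax3 was detected in 37.8% of 1194 control cells (35.0 to 40.6) and 31.4% of 740 mutant cells (28 to 34.8), leaving out 15 and 11 shallower cells. Without thinning, at median depths of 15716 and 14980 UMIs, the shares were 58.1% and 44.3%. Pax7 was detected in 17.0% (14.9 to 19.3) and 9.73% (7.69 to 12.1) of the thinned cells, and in 28.6% and 18.0% without thinning. As a background, neural cluster 5, with the ventral forebrain gene Nkx2-1 among its leading genes, had a Pax3 UMI in 0.917% of 109 thinned control cells and 2.46% of 122 mutant cells, at median depths of 10479 and 9193 UMIs. Pax7 was at 0 of 109 and 0 of 122 cells there, with upper bounds of 3.33% and 2.98%. Second arch-like cells stood at 0.602% and 0.439% for Pax3 and at 0.602% and 0.292% for Pax7, so detection of Pax7 in that cluster was at the level of the background.

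To ask how the pair differed between genotypes, sums over the mesenchyme were compared first. Pax3 had 3365 UMIs (57.8 CPM) in control and 1870 UMIs (42.7 CPM) in mutant mesenchyme, a log2 ratio of -0.44 (-0.52 to -0.35). Pax7 had 1179 UMIs (20.2 CPM) and 482 UMIs (11 CPM), a log2 ratio of -0.88 (-1.04 to -0.73). Pax7 was therefore lower by 1.5-fold or more and Pax3 was not, where 0.919% of the 11646 genes with at least 100 UMIs in a library were lower by that much. Both intervals lay below 0, as did those of 14.1% of these genes. Counted from the lowest ratio, Pax7 was number 39 and Pax3 number 183, and the median gene stood at 0.02. Fewer Pax-positive cells and less RNA per cell cannot be told apart in such sums. Over the 5 repeats of the clustering, the mesenchyme ratio stood between -0.44 and -0.43 for Pax3 and at -0.89 for Pax7. With the UMI shares of the 6 clusters held at the mean of both libraries, -7.34 of the -9.24 CPM difference in Pax7 was left (79.4%), and -9.19 of the -15.09 CPM difference in Pax3 (60.9%).

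Within the frontonasal-like cells, Pax3 went from 135 to 105 CPM (2658 and 1235 UMIs, log2 ratio -0.37, -0.47 to -0.27), and Pax7 from 53.3 to 31.8 CPM (1047 and 374 UMIs, log2 ratio -0.75, -0.92 to -0.57). Again only Pax7 passed 1.5-fold, beside 0.849% of 9778 genes, and both intervals lay below 0, beside 10.5% of genes. Weighting each cell equally moved the Pax3 ratio to -0.23, and thinning moved it to -0.07, so the size of the Pax3 difference here depended on how cells were weighted, while Pax7 stayed between -0.98 and -0.72 under the same settings. The ratios also depended on where the cluster border fell. In the repeat that gave a frontonasal-like cluster, the ratios were -0.36 and -0.74. In the 3 seeds that gave none, Pax3 was between -0.15 and -0.10 in the maxillary-named cluster that took most of these cells, and between -2.13 and -2.11 in the periocular-named cluster that took the rest. Pax7 was between -0.85 and -0.80 and between -0.96 and -0.92 in the same clusters. With the other kernel, Pax3 stood at 0.12 (-0.00 to 0.24) and -1.25 (-1.40 to -1.10), and Pax7 at 0.44 (-0.24 to 1.11), from a level of only 2.03 CPM in control, and -0.81 (-0.98 to -0.64). These repeat clusters also took in other cells. With the 3 seeds, frontonasal-like cells made up between 51.1% and 53.4% of the maxillary-named cluster and between 50.3% and 51.1% of the periocular-named one. With the other kernel they made up 40.1% and 61.0%. The ratios are thus not those of parts of the frontonasal-like cells alone, though the larger decrease of Pax3 lay in the periocular-named cluster each time. The 10 cells with the most UMIs held 5.79% of the control and 10.4% of the mutant Pax3 UMIs.

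The distribution over cells differed between the genes. For Pax3 the thinned share of cells with 1 UMI was 22.0% in control and 16.6% in mutant, and that with 3 or more UMIs was 5.78% and 7.97%. The mean over Pax3-positive cells was 1.68 UMIs in control and 1.93 in mutant, so fewer mutant cells were positive but these held no fewer UMIs each. Pax7 was lower at each step, with 11.7% and 7.16% of cells at 1 UMI, 3.77% and 2.43% at 2 UMIs, and 1.51% and 0.135% at 3 or more.

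A finer clustering split the frontonasal-like cells into clusters that carried the genes in different ways. This split was looked at after its Pax3 and Pax7 values were seen, carries no test, and is itself 1 of several possible. With the other kernel, the cells of finer cluster 2 were divided, 58.4% joining those of cluster 4 and 40.5% those of cluster 6. The frontonasal-like cluster was made almost wholly of 3 finer clusters, 2, 4 and 6, which held 48.5%, 28.3% and 20.9% of its control cells. Finer cluster 2, with Pax7, Rnf128, Tfap2b and Gata2 among its leading genes, had 156 CPM of Pax3 and 92.4 CPM of Pax7 in control cells. Finer cluster 4, led by Foxl2 and Hey2, had as much Pax3 (180 CPM) but only 3.84 CPM of Pax7. Finer cluster 6, led by Zic2, Ogn and Tagln, had 27.0 CPM of Pax3 and 25.1 CPM of Pax7. In control cells, finer cluster 2 was thus high for both genes, cluster 4 high for Pax3 with little Pax7, and cluster 6 lower for Pax3 with a level of Pax7 near that of the whole mesenchyme (20.2 CPM).

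The libraries differed within these finer clusters in different ways. In finer cluster 2, Pax3 went from 156 to 110 CPM (log2 ratio -0.51, -0.67 to -0.36) and Pax7 from 92.4 to 75.6 CPM (-0.29, -0.48 to -0.10). In the Foxl2-led cluster 4, Pax3 stood at 180 CPM in control and 183 CPM in mutant (0.02, -0.11 to 0.16), and Pax7 at 3.84 and 5.93 CPM from 21 and 26 UMIs (0.63, -0.26 to 1.53). In the Zic2-led cluster 6, Pax3 went from 27.0 to 6.76 CPM (-1.99, -2.69 to -1.35), although only 24 mutant UMIs were counted, and Pax7 from 25.1 to 16.1 CPM (-0.64, -1.13 to -0.16). With the other kernel, the cluster that took the cells of cluster 4 had 177 and 173 CPM of Pax3 (-0.03, -0.14 to 0.08) and the one that took those of cluster 6 had 81.5 and 18.6 CPM (-2.13, -2.46 to -1.82). Both also took in cells of finer cluster 2, which made up 44.0% of the former and 42.6% of the latter. Pmaip1, Rnf128 and Pax7, but not Foxl2, were among the leading genes of the former, which had 64.5 CPM of Pax7 in control. Pax3 was thus level in the former and lower in the latter, but these are not ratios of Foxl2-led or Zic2-led cells alone. Pax7 was lower in both mixed clusters, at -0.71 (-0.92 to -0.50) and -0.86 (-1.18 to -0.55). A difference between clusters of 1 library per group was not tested.

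Tfap2a and Tfap2b, chosen for this look after the values were seen, were themselves unevenly spread over finer clusters 2 and 4. They were not counted in finer cluster 6, which had the lowest Pax3 ratio of the 3. With the other kernel, both were among the leading genes of the cluster that took the cells of cluster 6. A link between their level and the Pax3 ratio was not tested. Tfap2b stood at 150 CPM in control cells of finer cluster 2 and at 3.66 CPM in those of the Foxl2-led cluster, and Tfap2a at 54.3 and 6.58 CPM. The Foxl2-led cluster was not level for all frontonasal genes. Alx1, a homeobox gene of the frontonasal mesenchyme, went from 405 to 301 CPM there (log2 ratio -0.43, -0.53 to -0.33) and from 497 to 427 CPM in finer cluster 2 (-0.22, -0.30 to -0.14).

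With the shares of the finer clusters within the frontonasal-like cells held fixed, 79.5% of the Pax3 difference but 39.2% of the Pax7 difference was left. The remaining 60.8% of the Pax7 difference went with how the cells were spread over the finer clusters, a division that rests on the borders of this 1 clustering. In the mutant library, 32.5% of frontonasal-like cells were in finer cluster 2, 36.9% in cluster 4 and 26.5% in cluster 6.

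**Figure D3:**
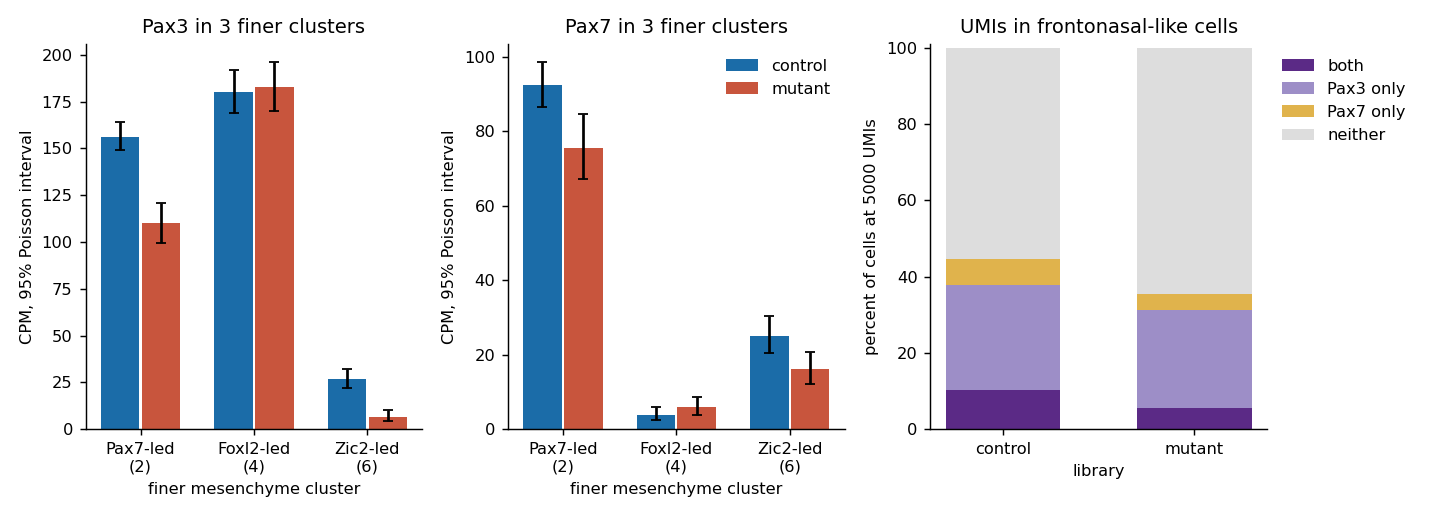
Left and middle, CPM of Pax3 and Pax7 in the 3 finer mesenchyme clusters that make up most frontonasal-like cells, with 95% Poisson intervals. Right, percent of frontonasal-like cells, thinned to 5000 UMIs, with a UMI of both genes, of 1 gene or of neither. Pax3 stood at 180 and 183 CPM in the Foxl2-led cluster and at 156 and 110 CPM in the Pax7-led one.

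Pax3 and Pax7 were found in the same frontonasal-like cells more often than the product of their shares. At 5000 UMIs, 122 of 1194 control cells had both (10.2%, 8.56 to 12.1) where the product was 6.42%, a ratio of 1.59 (1.33 to 1.88). In the mutant, 41 of 740 cells had both (5.54%, 4.00 to 7.44) where the product was 3.05%, a ratio of 1.82 (1.31 to 2.44). Pax3 alone was found in 27.6% of control cells (25.0 to 30.2) and 25.8% of mutant cells (22.7 to 29.1), and Pax7 alone in 6.78% (5.42 to 8.36) and 4.19% (2.86 to 5.89). The share with both differed most in proportion, with intervals that did not overlap, while the intervals of each single-gene share overlapped. The product of the 2 detection shares, however, also went from 6.42% to 3.05%. A lower share with both thus follows from lower detection of each gene, and the ratios to the product had intervals that overlapped. Within finer cluster 2, the share with both was 18.5% (15.4 to 21.8) in control and 14.9% (10.6 to 20) in mutant. In the Foxl2-led cluster it was 1.42% and 0.709%. A cell with no UMI of a gene may still express it, since most cells with either gene had only 1 or 2 UMIs.

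Outside the frontonasal-like cells, the mesenchyme clusters did not share 1 direction for Pax3. Maxillary-like cells had 190 control and 192 mutant UMIs (15 and 19.4 CPM, log2 ratio 0.37, 0.07 to 0.67), and mandibular-like cells 276 and 215 UMIs (24.6 and 33.2 CPM, 0.43, 0.17 to 0.70). Thinned shares in maxillary-like cells were 4.99% and 5.13% and in mandibular-like cells 7.31% and 8.61%, with intervals that overlapped, and 10 cells held 43.8% of the maxillary-like mutant UMIs. The mandibular-like ratio stayed between 0.40 and 0.43 in all 5 repeats of the clustering. The maxillary-like one did not hold, with an interval that took in 0 (0.24, -0.05 to 0.53) in the single repeat that kept this cluster apart from frontonasal-like cells. Periocular-like cells had 81 and 32 UMIs (19.1 and 8.05 CPM, -1.25, -1.89 to -0.64). In the 1 repeat that kept this cluster apart the ratio was -1.15 (-1.73 to -0.58), and in the other 4 the periocular-named cluster was made up of frontonasal-like cells by 50.3% to 61.0%. In second arch-like cells, 28 and 14 UMIs were counted, of which 10 cells held 92.9% and 100%, and in 2 of the 5 repeats the interval of this ratio took in 0. Pax7 had 73 and 45 UMIs in periocular-like cells (17.2 and 11.3 CPM, -0.61, -1.18 to -0.05), and at most 13 UMIs in a library in each of the second arch-like, maxillary-like and mandibular-like clusters, which is too few to show a difference. Pax3 and Pax7 were found together in 3 of 358 thinned control and 1 of 347 mutant periocular-like cells. Against the product of the single shares this was a ratio of 1.48 (0.305 to 4.28) in control and 2.31 (0.0586 to 12.8) in mutant, too few cells to tell it from the frontonasal-like ratio or from 1.

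**Figure D4:**
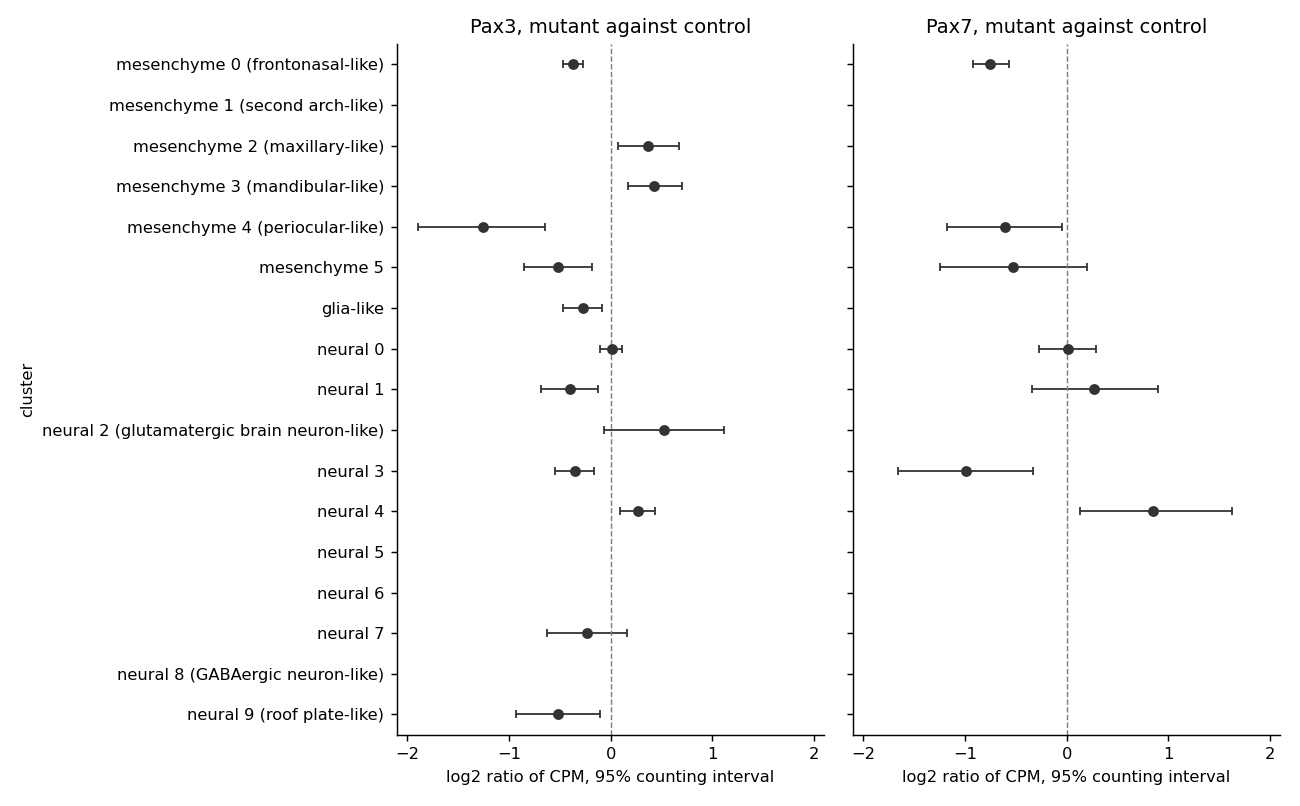
Log2 ratio of CPM, mutant over control, with 95% counting intervals, for Pax3 (left) and Pax7 (right) in each cluster with at least 30 UMIs of the gene in a library. Ratios lay on both sides of 0, from -1.25 in periocular-like cells to 0.43 in mandibular-like cells for Pax3 among the named mesenchyme clusters.

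Glia-like cells, with Sox10, Foxd3 and Erbb3 among their leading genes, carried Pax3 and very little Pax7. Pax3 had 637 UMIs in control (126 CPM) and 339 in mutant (105 CPM), a log2 ratio of -0.27 (-0.47 to -0.08) that stood at -0.29 in each of the 5 repeats. It was detected in 40.3% of 258 thinned control cells (34.3 to 46.6) and 29.6% of 199 mutant cells (23.4 to 36.5). Pax7 had 13 and 8 UMIs (2.57 and 2.47 CPM, -0.06, -1.54 to 1.32). The 7 melanocyte markers summed to 86.9 CPM in control and 51.2 CPM in mutant glia-like cells, with 157 and 43 UMIs of Dct, a melanocyte enzyme gene, and 163 and 69 UMIs of Pmel. The 8 glia markers summed to 2244 CPM in control and 3045 CPM in mutant, and the 8 neuron markers to 2840 and 512 CPM. In control, neuron markers thus summed above glia markers. The part of cells with neuron or melanocyte markers in the Pax3 difference was not tested.

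Brain progenitors carried both genes at like levels in each library. In the class, Pax3 stood at 153 CPM in control and 165 CPM in mutant (1118 and 1943 UMIs, log2 ratio 0.11, -0.00 to 0.21), and Pax7 at 22.6 and 24.5 CPM (165 and 289 UMIs, 0.12, -0.16 to 0.40). All of the Pax7 and nearly all of the Pax3 came from progenitor cluster 0, where Pax3 was at 185 CPM in both libraries (0.01, -0.10 to 0.11) and Pax7 at 27.5 and 27.7 CPM (0.01, -0.27 to 0.29). Of the thinned cells of the class with a Pax7 UMI, 73.1% in control and 64.8% in mutant also had one of Pax3, against 33.3% and 38.1% of those without Pax7. The class ratios stayed between 0.07 and 0.10 for Pax3 and between 0.07 and 0.11 for Pax7 over the 5 repeats.

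The Msx3-led dorsal cluster and the roof plate-like cluster differed in direction for Pax3. The Msx3-led dorsal cluster had 427 control and 719 mutant UMIs of Pax3 (275 and 332 CPM, log2 ratio 0.27, 0.09 to 0.44) and 23 and 58 UMIs of Pax7 (14.8 and 26.8 CPM, 0.85, 0.13 to 1.62). Pax3 was found in 64.6% of 130 thinned control cells (55.8 to 72.8) and 76.6% of 175 mutant cells (69.6 to 82.6). The Pax3 ratio stood between 0.23 and 0.27 with the 4 other seeds, but the interval of Pax7 took in 0 with 1 of them (0.66, -0.06 to 1.42). With the other kernel these cells made up only 38.5% of a merged cluster, which had ratios of 0.22 (0.05 to 0.39) for Pax3 and 0.39 (-0.27 to 1.07) for Pax7. In the roof plate-like cells, Pax3 had 90 and 113 UMIs (150 and 104 CPM, -0.52, -0.93 to -0.10) in only 44 and 78 cells, and Pax7 7 and 8 UMIs. With the other kernel these cells fell in the main progenitor cluster. The summed dorsal genes were 2632 CPM in control and 1995 CPM in mutant roof plate-like cells. Dorsal genes also summed above ventral ones in glutamatergic neuron-like cluster 2 (917 and 814 against 40.0 and 39.7 CPM). Pax3 there was only at 18.1 and 25.9 CPM. In neural clusters 0 and 3, which had more Pax3, dorsal sums were 248 and 235 CPM and 264 and 247 CPM. Ventral sums there were 302 and 320 CPM and 645 and 618 CPM, so the Pax3 level did not follow these sums in every cluster.

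Among neurons, Pax3 and Pax7 were concentrated in 2 of the 4 clusters. Over the class, Pax3 went from 87.5 to 70.0 CPM (625 and 822 UMIs, log2 ratio -0.32, -0.47 to -0.17) and Pax7 from 12.5 to 9.79 CPM (89 and 115 UMIs, -0.35, -0.76 to 0.07). Neural cluster 3, led by Tfap2d and Bhlhe23, held most of the Pax3, with 391 control and 499 mutant UMIs. Of the Pax7 it held 45 of 89 control UMIs and 37 of 115 mutant UMIs, and neural cluster 1 held 35 and 68. Pax3 stood in cluster 3 at 214 and 167 CPM (-0.35, -0.55 to -0.16) and Pax7 at 24.6 and 12.4 CPM from 45 and 37 UMIs (-0.99, -1.66 to -0.33). In this cluster, 21 of the 22 thinned control cells with Pax7 also had Pax3, and 14 of the 16 mutant cells. Neural cluster 1, led by genes that include Hmx2, Tlx3 and Pax2, had 73.2 and 55.6 CPM of Pax3 (-0.40, -0.68 to -0.12), and 13.2 and 15.9 CPM of Pax7 (0.27, -0.34 to 0.90). The border between clusters 1 and 3 moved as well. In the repeats with other seeds, the cluster that held most of cluster 1 had an interval for Pax3 that took in 0, as with -0.12 (-0.47 to 0.23), and the one that held cluster 3 stood between -0.47 and -0.42. With the other kernel both lay in 1 cluster, with -0.38 (-0.54 to -0.22) for Pax3 and -0.23 (-0.67 to 0.22) for Pax7, and the Pax3 ratio of the class went to -0.13. The glutamatergic and GABAergic neuron-like clusters had at most 25.9 CPM of Pax3 and 5.80 CPM of Pax7.

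The defining genes of skeletal muscle, another known site of both factors, were at or near 0. Over the mesenchyme, Myod1 had 2 control and 0 mutant UMIs, Myf5 had 14 and 7, and Myog had 10 and 3. In frontonasal-like cells all 6 muscle markers summed to 3.56 and 3.99 CPM, with 1 and 2 of them at 0. Blood markers summed to 220 CPM in control and 1.94 CPM in mutant mesenchyme. Leaving out cluster 5 and barcodes rich in haemoglobin, chosen after seeing the data, gave the Pax3 and Pax7 mesenchyme ratios listed with the other settings.

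The genes most like each member were sought over the 14 control clusters with at least 50 cells, as Pearson's r of log2(CPM + 1) among 11641 genes with at least 200 control UMIs. All clusters came from 1 library, and no p was computed. For Pax3 the 8 highest were Zfp341 (0.82), Ehd3 (0.81), Pax7 (0.73), Mgarp (0.73), Tmem177 (0.73), Boc (0.70), Casp2 (0.70) and Snx12 (0.69). Of these, Pax7 kept an r of 0.70 in the mutant clusters and Boc 0.56, while Zfp341 had 0.13 and Ehd3 0.17. For Pax7 they were Irx5 (0.78), Pax3 (0.73), Irx3 (0.73), Mgarp (0.72), Arpin (0.71), Zfp341 (0.70), Vmp1 (0.68) and 2700062C07Rik (0.68). Irx5 and Irx3, Iroquois homeobox genes, had 0.83 and 0.73 in the mutant. Each member was thus among the 3 genes most like the other in control clusters.

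Other genes of the same pathways were read from fixed lists, with the median over the list beside that of all genes (0.02 in mesenchyme and 0.01 in frontonasal-like cells). Pax9, a paired-box gene of facial mesenchyme, was the only one of the 7 other family members with at least 100 UMIs. It went from 48.9 to 32.2 CPM in frontonasal-like cells (962 and 379 UMIs, log2 ratio -0.60, -0.78 to -0.43), past 1.5-fold as Pax7 was.

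Of 16 frontonasal transcription factors, all tested, 2 were lower and 3 higher by 1.5-fold or more in frontonasal-like cells, where 0.849% and 1.53% of all genes were, and the list median was -0.15. Tfap2a (37.9 and 20.4 CPM, log2 ratio -0.90) was among the lower, but it is itself a floxed gene, so its place there is tied to the genotype. Foxd1 (49.3 and 98.3 CPM, 1.00), Foxl2 (29.6 and 50.4 CPM, 0.77) and Mecom (25.8 and 56.7 CPM, 1.13) were higher. Over the mesenchyme, 2 were lower, Alx1 (-0.70) among them, and Foxd1 (0.68) was higher, beside 0.919% and 2.34% of all genes.

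Regulators of the neural plate border and early crest spread widely. Of 17 tested in frontonasal-like cells out of 23, 2 were lower, Tfap2a and Sox8 (7.58 and 4.42 CPM, log2 ratio -0.78, -1.26 to -0.32), and 3 were higher. The list median was -0.13, where 0.849% of all genes were lower and 1.53% higher by as much. Tfap2a is itself a floxed gene, so its place in this count is tied to the genotype. The 3 were Zic-family zinc finger genes, Zic1 (4.73 and 29.0 CPM, 2.62), Zic2 (2.04 and 15.4 CPM, 2.92) and Zic5 (2.75 and 26.5 CPM, 3.27). Over the mesenchyme Gbx2 was lower (6.10 and 2.65 CPM, -1.20). Zic genes are also expressed in the brain. The 8 brain progenitor markers summed to 51.3 and 49.4 CPM in frontonasal-like cells and to 54.8 and 78.5 CPM over the mesenchyme, while the 8 neuron markers summed to 132 and 177 CPM and to 157 and 215 CPM. The part of such cells in the Zic counts was not tested. Among 13 dorsal neural tube genes, 3 were tested in frontonasal-like cells and the only ones past 1.5-fold were Zic1 and Zic5. Over the mesenchyme Zic4 was past it as well (1.97 and 6.39 CPM, 1.69), as was Dbx1 of the ventral list (1.68 and 3.65 CPM, 1.12).

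Of 18 cofactors and chromatin partners of the pair, 17 were tested and none was 1.5-fold apart in either group of cells, with a median of -0.02 in both. Few genes were, at 0.849% lower and 1.53% higher in frontonasal-like cells and 0.919% and 2.34% over the mesenchyme. This count therefore does not set the list apart. Some partners had intervals apart from 0 in frontonasal-like cells, among them Tle1 (-0.31, -0.44 to -0.19), Daxx (-0.28, -0.46 to -0.11) and Tead2 (0.26, 0.20 to 0.31). The most abundant were Trim28, a co-repressor (331 and 312 CPM in frontonasal-like cells, log2 ratio -0.09), and Cbx5, a heterochromatin protein gene (307 and 297 CPM, -0.05). In the aryl hydrocarbon receptor pathway, studied because the pair is known to restrain it in the face, 5 of 10 genes were tested in frontonasal-like cells and none was 1.5-fold apart (median 0.04). Over the mesenchyme 6 were tested, and Cdkn1a, a cell cycle inhibitor gene, was higher (71 and 125 UMIs, 1.23, 0.80 to 1.67). Of the pathway's induced enzyme genes, which had too few UMIs to be tested, Cyp1a1 had 0 UMIs in frontonasal-like cells of either library, and Cyp1b1, singled out after its values were seen, had 5 and 19 UMIs (2.67, 1.20 to 4.44) there and 40 and 76 over the mesenchyme (1.34, 0.77 to 1.93).

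Of 20 genes reported elsewhere as targets of PAX3 or PAX7, mostly in muscle, melanocytes or neural tube, 6 were tested in frontonasal-like cells (median 0.32). Itm2a, a membrane protein gene of muscle precursors and mesenchyme, was the one past 1.5-fold, beside 1.53% of all genes (98.7 and 151 CPM, log2 ratio 0.61, 0.52 to 0.71). Over the mesenchyme 7 were tested, the median was 0.11 and none was 1.5-fold apart. The melanocyte targets Dct and Mitf and the muscle targets Myf5, Myod1 and Met had too few UMIs to be tested. Dct, singled out after its values were seen, had 28 control and 0 mutant UMIs in frontonasal-like cells. Over the mesenchyme it had 32 and 3 UMIs (log2 ratio -3.00, -5.36 to -1.33). The mesenchyme intervals of Mitf (-0.36, -0.89 to 0.15), Myf5 (-0.59, -2.14 to 0.82) and Met (0.36, -0.21 to 0.92) took in 0. A link between Dct and the Pax3 level was not tested.

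**Figure D5:**
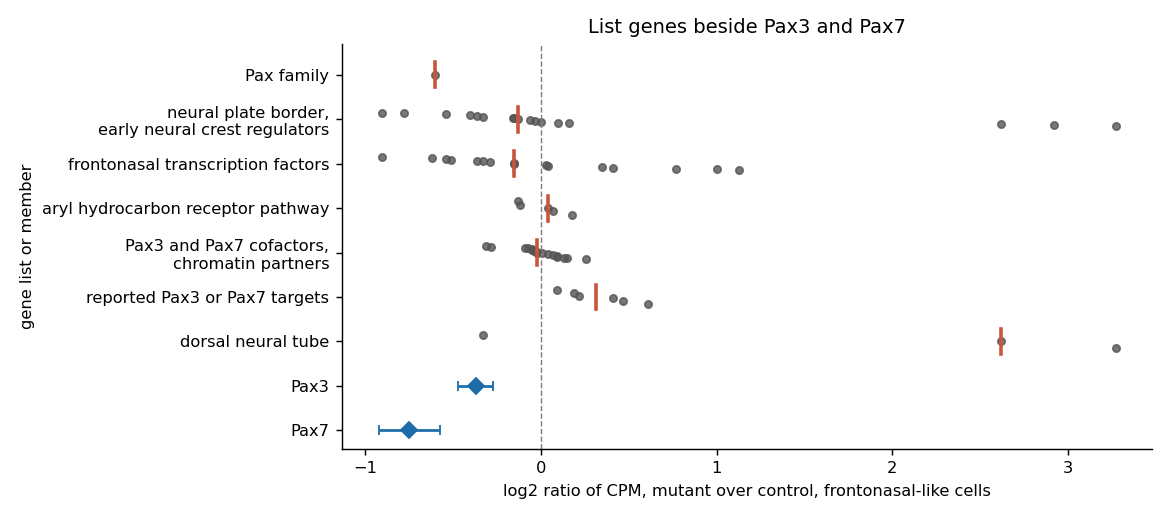
Log2 ratio of CPM, mutant over control, in frontonasal-like cells for each list gene with at least 100 UMIs in a library (grey points), with list medians (red bars), beside Pax3 and Pax7 with 95% counting intervals (blue). Pax3 (-0.37) and Pax7 (-0.75) lay to the left of every list median but that of the Pax family for Pax3.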

How the data were processed

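Each matrix holds raw UMI counts, which the authors deposited unnormalized after running Cell Ranger (6.0.0 in the headers) on 10x 3′ libraries with mm10. The strand setting was not given in the sources used here. Barcodes with over 10% mitochondrial UMIs, under 200 or over 7500 genes were removed (523 control, 476 mutant). Libraries were integrated and clustered in Seurat 5.3.0 (2000 variable genes, 30 dimensions, resolution 0.05), and mesenchyme and neural cells again (20 dimensions, 0.2; finer clustering 0.4), without Pax3, Pax7, Tfap2a, Tfap2b and other outcome genes. The partition depended on the OpenBLAS kernel and the Louvain seed. The first one made (SkylakeX, seed 1) was kept, and Haswell and seeds 2 to 5 were added after seeing the data. Names ("-like") came from marker lists by a rule settled after the clusters were seen. Doublets called by Scrublet (91 control and 166 mutant cells, 1.62% and 2.97%) were kept. UMIs were summed per library and class, with exact Poisson, conditional binomial and Clopper-Pearson intervals. Ratios were given for genes with at least 100 UMIs in a library, and shares for cells thinned to 5000 UMIs. The calculation was tested on simulated data. Named list genes had 100 UMIs and lay 1.5-fold apart, or were the 2 highest in control frontonasal-like cells. The members and lists were chosen with earlier results of these data known. Alternatives were TMM scaling (edgeR 4.0.16), equal weights per cell, thinning, doublet removal, a minimum of 1000 genes, leaving out the 10 richest cells, finer clustering and no integration. Some list genes and sequences are not reported here.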

Additional observations from a re-analysis of the deposited data

Results flagged for a closer look

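Within 1 library per group, some clusters had Pax3 ratios whose counting intervals lay below 0 and others above 0. This difference between clusters was not tested, and genotype cannot be told apart from sex. Such intervals were common, lying below 0 for 14.1% and above 0 for 21.4% of the genes tested over the mesenchyme. In frontonasal-like cells the shares were 10.5% and 14.2%, and for the other clusters they were not computed. Below 0 were the log2 ratios of Pax3 in frontonasal-like (-0.37), second arch-like (-1.02), periocular-like (-1.25) and unnamed mesenchyme cluster 5 (-0.52), and in neural clusters 1 (-0.40), 3 (-0.35) and 9 (-0.52). Above 0 were those in maxillary-like (0.37) and mandibular-like (0.43) cells and in neural cluster 4 (0.27). For Pax7, ratios lay below 0 in frontonasal-like (-0.75) and periocular-like (-0.61) cells and in neural cluster 3 (-0.99), and above 0 in neural cluster 4 (0.85). Second arch-like cells held only 28 and 14 UMIs of Pax3. Of these values, that of Pax3 in mandibular-like cells kept its direction, with an interval apart from 0, in all 5 repeats of the clustering, and that in neural cluster 4 in the 4 that kept the cluster apart. Those in maxillary-like cells and neural cluster 1 did not hold, and periocular-like cells were kept apart in only 1 repeat. The interval of Pax3 in second arch-like cells took in 0 in some repeats, as did that of Pax7 in neural cluster 4. With the 4 other seeds, Pax3 intervals stayed below 0 for neural cluster 9 and for the cluster that held neural cluster 3. With the other kernel both were merged into larger clusters.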

How the results depend on the processing

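No paired analysis was possible because each group had 1 library, so leaving out a replicate was not possible either. Of 131 alternative log2 ratios of Pax3 and Pax7, 118 stayed within the counting interval of the reported value, 13 moved out of it and 0 turned a direction whose interval left out 0. Settings that gave no frontonasal-like cluster had no value for it and are not in this count. Each gene thus had 9 alternatives in frontonasal-like cells against 15 in mesenchyme. All 8 alternatives for co-detection stayed within it. Thinning to 5000 UMIs gave Pax3 -0.29 in mesenchyme, -0.07 in frontonasal-like and -0.51 in glia-like cells, and Pax7 -1.07, -0.98 and 1.37 (the last from 1 positive cell per library). The same cells without the thinning draw, an alternative chosen after seeing the data, gave Pax3 -0.33 in mesenchyme and -0.21 in frontonasal-like cells, and equal weights over all frontonasal-like cells gave -0.23, so part of the shift came from the draw and part from the weights. Finer clustering gave Pax3 -0.34 in mesenchyme, and in frontonasal-like cells, then finer cluster 2 alone, -0.51 for Pax3 and -0.29 for Pax7. Without cluster 5 and haemoglobin-rich barcodes, also chosen after seeing the data, the mesenchyme ratios were -0.48 for Pax3 and -0.93 for Pax7. With a minimum of 30 UMIs, the genes past 1.5-fold were 287 lower and 608 higher in mesenchyme (107 and 273 as reported), and 247 and 358 in frontonasal-like cells (83 and 150). Finer clustering gave 165 higher in mesenchyme. Clustering without integration gave no frontonasal-like cluster, so those values could not be had. Repeats with another linear algebra kernel and 4 other seeds, chosen after seeing the data, gave a frontonasal-like cluster in 1 of 5. The kernel moved Pax3 in neurons to -0.13, and no seed moved a class ratio out of its interval. Values per cluster of mesenchyme, and the finer split, are therefore less firm than those over the mesenchyme.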
